A study of Mus musculus with 2 samples.

Results

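The guanylate-binding protein (GBP) genes of the mouse, taken as the 9 genes Gbp2, Gbp2b, Gbp3, Gbp4, Gbp5, Gbp6, Gbp7, Gbp8 and Gbp9, were followed through 2 quantifications of the same libraries. They were found by symbol among 55536 annotated genes and hold 34 of 141767 annotated transcripts. The libraries were total RNA depleted of ribosomal RNA and prepared from the chromatin fraction, which holds RNA still attached to its template, of bone marrow-derived macrophages (BMDM) of C57BL/6J mice. The cells were primary cells treated with lipid A, the membrane anchor of lipopolysaccharide that activates Toll-like receptor 4, at 100 ng/ml for 75 min. Both libraries belong to this 1 group: the starting RNA was 250 ng for replicate 1 and 500 ng for replicate 2. The labels give them as biological replicates with the same donor identifier and do not give sex or age. Nothing in them says whether the cells came from separate animals, so the spread between the 2 libraries may be in part technical. No untreated group was among the samples, so the levels below are levels after lipid A and not inductions.

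GBPs are large GTPases of the dynamin superfamily that interferons induce in macrophages and many other cells. They bind to membranes of pathogen-containing vacuoles and of bacteria that reach the cytosol, break them open with the immunity-related GTPases, and promote activation of caspase-11 and of inflammasomes. Their promoters are known targets of interferon-activated transcription factors, among them IRF1, through the interferon-stimulated response element (ISRE) and the gamma-activated site (GAS). Some members carry a cysteine near the end of the protein to which a lipid (an isoprenyl group) is attached, which anchors them in membranes.

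The first quantification held 21453617 estimated counts on annotated genes in replicate 1 and 29638814 in replicate 2. The second held 38860455 and 49649572. Protein-coding genes took 14.0% of all TPM (a transcript level scaled for length and sequencing depth) in replicate 1 and 24.99% in replicate 2 of the first quantification, and 20.3% and 40.3% in the second. Of 10 macrophage markers 9 reached 1 TPM in both libraries, with Fcgr1 under it, and their summed level was 309.9 and 494.0 TPM. Of 6 markers of T and NK cells, 5 of B cells, 6 of neutrophils and progenitors and 6 of stromal and endothelial cells none did, and their summed levels per list lay between 0.02 and 4.74 TPM. Cd3e, Cd3g, Cd2, Klrb1c, Pax5, Ly6g, Mpo and Elane were at 0 in both libraries. In the second quantification the T and NK list summed to 13.7 and 29.4 TPM and the stromal and endothelial list to 6.96 and 17.4 TPM, and the part of these in any result was not tested.

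The family lies in 2 clusters. On chromosome 3, on the plus strand and in this order, lie Gbp5 (142493978 to 142522344, ENSMUSG00000105504.4), Gbp7 (142530342 to 142550149, ENSMUSG00000040253.15), Gbp3 (142560026 to 142573209, ENSMUSG00000028268.14), Gbp2b (142594847 to 142619179, ENSMUSG00000040264.10) and Gbp2 (142620602 to 142638008, ENSMUSG00000028270.12). On chromosome 5, on the minus strand, lie Gbp8 (105014150 to 105139540, ENSMUSG00000034438.16), Gbp9 (105077630 to 105139539, ENSMUSG00000029298.15), Gbp4 (105115767 to 105139586, ENSMUSG00000079363.7) and Gbp6 (105270702 to 105293698, ENSMUSG00000104713.4). Coordinates are those of build mm10 (GRCm38) with GENCODE M21, the build and annotation of the deposited tables. Gbp8, Gbp9 and Gbp4 overlap as annotated genes and share 1 first exon: the exon of Gbp9-202, at 105139480 to 105139539, lies inside the first exons of Gbp8-201 and of all 6 Gbp4 transcripts. The other transcripts of Gbp8 and Gbp9 begin farther downstream.

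The promoters of the chromosome 3 members are shown because the family is known for its interferon response and because 1 of its members was silent here. Of the 9 members, 5 had a window in the RefSeq promoter table (GRCm38.p6). These members had 6 windows, since Gbp3 had a second one, which is not shown. Capitals mark matches, on either strand, to 3 motifs: the ISRE core (GAAA, any 2 bases, GAAA), the GAS form (TTC, any 3 bases, GAA) and a form of the kB site that NF-kB reads (GGG, any 5 bases, CC). Each run ends just before the start site given by RefSeq or, where GENCODE begins an exon earlier, before that exon. The run of Gbp2 was carried on over 12 exon bases, since its match lies wholly inside the GENCODE first exon of Gbp2-201. The runs are the 250 bases of Gbp7 (chr3:142530086-142530335) and of Gbp2b (chr3:142594597-142594846), 216 bases of Gbp5 (chr3:142496684-142496899), 232 bases of Gbp3 (chr3:142559794-142560025) and 201 bases of Gbp2 (chr3:142620413-142620613), all on the plus strand.
Gbp5: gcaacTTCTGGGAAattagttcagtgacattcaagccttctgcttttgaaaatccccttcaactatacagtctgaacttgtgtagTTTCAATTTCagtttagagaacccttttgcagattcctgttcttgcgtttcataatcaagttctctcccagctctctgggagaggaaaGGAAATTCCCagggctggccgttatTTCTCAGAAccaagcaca
Gbp7: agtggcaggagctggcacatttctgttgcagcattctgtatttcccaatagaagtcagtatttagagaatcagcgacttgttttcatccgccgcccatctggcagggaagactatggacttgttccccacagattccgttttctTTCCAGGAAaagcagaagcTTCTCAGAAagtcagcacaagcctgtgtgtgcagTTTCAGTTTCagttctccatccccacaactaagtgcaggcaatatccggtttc
Gbp3: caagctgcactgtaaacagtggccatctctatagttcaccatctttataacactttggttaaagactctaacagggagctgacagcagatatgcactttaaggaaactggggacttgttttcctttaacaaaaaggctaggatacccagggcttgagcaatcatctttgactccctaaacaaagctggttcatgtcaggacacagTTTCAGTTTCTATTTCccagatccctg
Gbp2b: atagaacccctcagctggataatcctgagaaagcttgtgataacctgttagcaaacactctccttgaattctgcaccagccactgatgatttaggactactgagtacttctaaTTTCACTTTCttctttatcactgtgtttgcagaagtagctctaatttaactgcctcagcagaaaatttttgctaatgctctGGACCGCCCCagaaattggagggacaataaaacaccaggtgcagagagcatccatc
Gbp2: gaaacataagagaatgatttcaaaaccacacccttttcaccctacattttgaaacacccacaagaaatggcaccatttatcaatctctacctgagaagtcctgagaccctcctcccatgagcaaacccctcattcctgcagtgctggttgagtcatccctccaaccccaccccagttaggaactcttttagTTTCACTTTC

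An ISRE match was present upstream of the RefSeq start site of all 5 members, in each case as its reverse complement. By GENCODE the match of Gbp2 lies inside the first exon of Gbp2-201 and not upstream of it. The second window of Gbp3 held no match to any of the 3 motifs, so this count is per member and not per window. Counted from the RefSeq start site, with negative positions upstream, the ISRE match lay at -165 to -156 in Gbp5, -53 to -44 in Gbp7, -137 to -128 in Gbp2b and -59 to -50 in Gbp2. Gbp3 had 2 matches that overlap each other, at -45 to -36 and -39 to -30. Among 32851 promoter windows of the same length, 3.44% held an ISRE match. GAS matches were found in 2 of the 5, with 2 in Gbp5 and 2 in Gbp7, against 8.30% of all windows. The kB form, which 50.8% of all windows held, was found in 4 of the 5 over the whole window and in 2 of the 5, Gbp5 and Gbp2b, when only the 250 bases upstream were read. None of the matches shown overlaps a match to another of the motifs. Gbp2b, which gave no counts in the first quantification, thus had the same ISRE letters as Gbp2. These matches are letters in a window and not evidence of binding in these cells.

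The ends of the coding sequences are shown because they separate the members with a lipid anchor from the others. Each line is the last 30 coding bases with the stop codon, from the GENCODE M21 transcripts, and capitals mark a cysteine codon as the fourth codon before the stop.
Gbp2-201 (chr3:142637464-142637493, plus strand): aaatcgtctgggaagTGCactatactctga
Gbp2b-201 (chr3:142618176-142618205, plus strand): cctccacctcgatcaTGCaccatactttaa
Gbp5-201 (chr3:142521133-142521162, plus strand): agacatcatcatgacTGTgttataagctaa
Gbp5-202 (chr3:142518615-142518644, plus strand): ctcaccaggaaggtggctggttgtctgtag
Gbp7-201 (chr3:142546545-142546574, plus strand): cagaattcagacaaagttagaaaactctaa

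The codon was present in the full-length transcripts of Gbp2, Gbp2b and Gbp5 and in none of those of Gbp3, Gbp4, Gbp6, Gbp7, Gbp8 and Gbp9. Gbp5-202, annotated as a target of nonsense-mediated decay, has an added exon of 940 bases (142518120 to 142519059) and stops inside it, so it lacks the codon. Over whole coding sequences, the nearest relative of Gbp2 was Gbp2b (82.5% identical aligned bases), that of Gbp3 was Gbp7 (75.9%) and those of Gbp5 were Gbp2 and Gbp2b (65.8% each). Identity ran from 54.2% to 82.5% within the chromosome 3 cluster, from 76.3% to 89.3% within the chromosome 5 cluster and from 49.8% to 70.4% between clusters.

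After lipid A, 8 of the 9 members were at 1 TPM or more in both libraries, beside 34.7% of protein-coding genes, and Gbp5 held most of the family's signal. Gbp5, which promotes assembly of the NLRP3 inflammasome, stood at 203.5 TPM in replicate 1 and 629.0 TPM in replicate 2, or 416.2 ± 300.9 TPM (SD, n = 2). That mean placed it at rank 30 of 7633 expressed protein-coding genes. Gbp5 took 18182 of the family's 25317 counts in replicate 1 (71.8%) and 63159 of 88822 in replicate 2 (71.1%). Its level was above those of all other members in both libraries, and its range did not overlap with that of any of them. The deposited interval for its TPM, of a level that the sources used here do not give, was 191.0 to 198.9 in replicate 1 and 600.2 to 611.5 in replicate 2 and lay below the TPM itself in both. In replicate 2 the TPM of Gbp6 (41.53) and of Gbp7 (52.78) also lay above their intervals (38.67 to 41.19 and 49.34 to 52.26).

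Of the remaining chromosome 3 members, 3 were expressed and Gbp2b was not. Gbp7, linked to oxidative and autophagic killing, was at 17.4 and 52.8 TPM, or 35.11 ± 24.99 TPM (SD, n = 2). Gbp3, which acts in caspase-11 activation, was at 14.8 and 54.1 TPM (34.4 ± 27.8). Gbp2, which coats vacuoles of Toxoplasma and Gram-negative bacteria, was at 15.98 and 44.46 TPM (30.2 ± 20.1). The order of these 3 was not the same in the 2 libraries: Gbp7 was the highest of them in replicate 1 and Gbp3 in replicate 2. Gbp2b, the gene formerly called Gbp1, had 0 counts in both libraries of the first quantification, and in the second it had 0 and 1.01 estimated counts. At these depths a count of 0 allows up to 3 counts, or 0.140 and 0.101 CPM (counts scaled to library size).

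On chromosome 5 all 4 members were expressed. Gbp6 was at 12.2 and 41.5 TPM (26.9 ± 20.8, SD, n = 2), Gbp9 at 11.8 and 28.3 TPM (20.1 ± 11.7) and Gbp8 at 8.84 and 26.2 TPM (17.5 ± 12.3). Gbp4 was at 1.42 and 4.14 TPM (2.78 ± 1.92), which put it at rank 6280 of 7633. From Gbp7 down to Gbp8 the replicate ranges of neighbours in the order overlapped, so these neighbours did not differ beyond their spread between libraries. That spread includes a shift shared by all expressed members, which were higher in replicate 2, and within each library Gbp2 was above Gbp6, Gbp6 above Gbp9 and Gbp9 above Gbp8. The breaks in the order were those below Gbp5, below Gbp8 and below Gbp4.

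**Figure D1:**
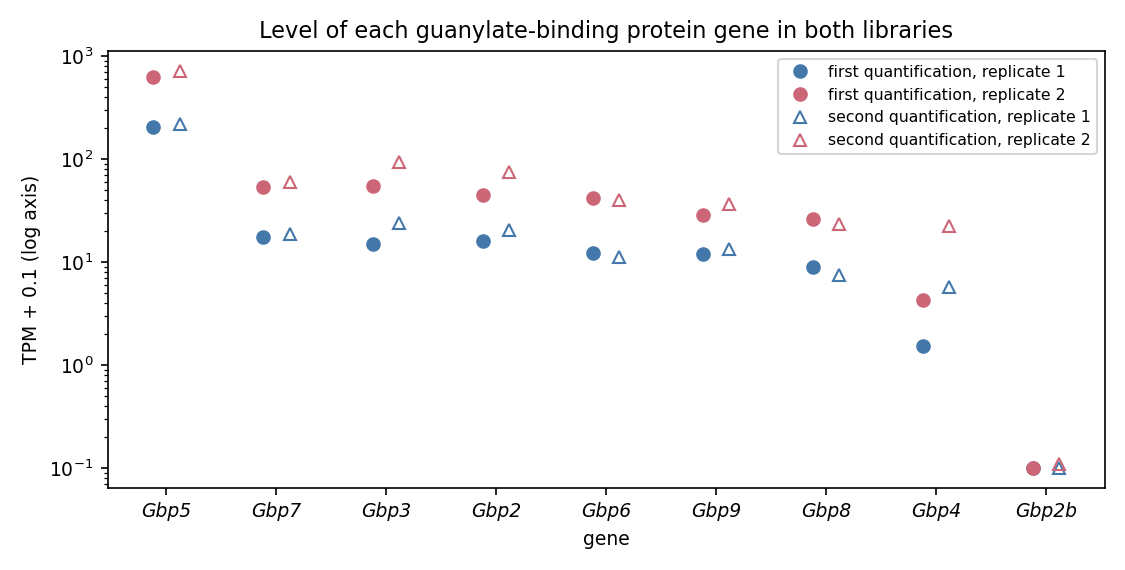
Level of each member in TPM plus 0.1 on a log axis, in both libraries (colours) and both quantifications (filled circles first, open triangles second). Gbp5 stands above all other members, Gbp2b lies at the floor, and Gbp4 is the member whose 2 quantifications lie farthest apart.

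In the second quantification the family kept Gbp5 at the top and Gbp2b at the bottom, and the middle order shifted. Gbp5 was at 219.3 and 718.2 TPM, and Gbp3 followed at 23.9 and 94.1 TPM. Gbp2 (20.3 and 74.4 TPM) then stood above Gbp7 (18.4 and 59.4 TPM). Gbp6 (11.2 and 40.0 TPM), Gbp9 (13.4 and 36 TPM) and Gbp8 (7.42 and 23.1 TPM) kept their places by mean. In replicate 1, however, Gbp9 was above Gbp6. Gbp4 was at 5.63 and 22.1 TPM, and its range then overlapped with that of Gbp8.

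The 2 libraries were compared gene by gene on rounded expected counts scaled by TMM (trimmed mean of M-values), with an exact two-sided binomial test and Benjamini-Hochberg adjustment over the 14442 genes whose counts summed to at least 20. A gene was called at an adjusted p under 0.05 and a difference of 2-fold or more. This test compares 2 libraries of 1 group, not conditions, and its intervals cover counting error only. All 8 expressed members had more scaled counts in replicate 2, by 1.40-fold to 1.95-fold. None of the 8 was called higher, beside 6.92% of all genes tested, and none was called lower, beside 5.02%. Their median log2 ratio was 0.82, beside 0.00 for all genes tested and -0.12 for protein-coding genes at 1 TPM or more. All 8 had an adjusted p under 0.05 and an unadjusted p under 0.05, so the fold alone kept them from a call. The share of all genes tested that reached either p was not computed.

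The largest ratios belonged to Gbp4, Gbp7, Gbp3 and Gbp6. Gbp4 had 103 and 426 expected counts, a ratio of 1.95-fold (95% Clopper-Pearson interval 1.58 to 2.46; adjusted p = 3.82e-10, exact binomial test). Gbp7 had 1885 and 7546 counts and a ratio of 1.90-fold (1.81 to 2.00), Gbp3 had 1025 and 4087 counts (1.89-fold, 1.77 to 2.03) and Gbp6 had 1204 and 4774 counts (1.88-fold, 1.77 to 2.01). Gbp5 lay below these 4, at 1.65-fold (1.62 to 1.68), and its interval overlaps with that of Gbp4 alone among them. Gbp8 (485 and 1566 counts, 1.53-fold, 1.38 to 1.7), Gbp2 (1067 and 3229 counts, 1.44-fold, 1.34 to 1.54) and Gbp9 (1366 and 4035 counts, 1.40-fold, 1.32 to 1.49) had the smallest ratios.

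The scaling decided the call. With the library totals alone the ratios were 2.14-fold to 2.98-fold and all 8 members were called, as were 26.6% of all genes, whose median log2 ratio was then 0.61. With DESeq2's size factors they were 1.40-fold to 1.95-fold and 0 of 8 were called. Without the filter on low counts Gbp4 alone was called, at a log2 ratio of 1.02. Replicate 2 also had the larger amount of starting RNA and the larger share of TPM on protein-coding genes. With TPM rescaled so that only protein-coding genes make up the total, the family summed to 2044 and 3525 TPM, beside 285.9 and 880.5 TPM as deposited. The part of these differences in the ratios was not tested.

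Of the other interferon-inducible GTPases, a list of 19, 15 were tested, with a median log2 ratio of 2.13. Of the 15, 10 were called higher in replicate 2 and 0 lower, beside 6.92% and 5.02% of all genes tested. The antiviral genes Mx2 (35.8 and 298.7 TPM, 3.81-fold on scaled counts) and Mx1 (39.6 and 260.0 TPM, 2.88-fold) had the highest levels on the list. The immunity-related GTPase genes Tgtp2 (0.56 and 10.4 TPM, 8.61-fold) and Ifi47 (1.87 and 22.4 TPM, 7.12-fold) had the largest ratios. Gvin1, a gene of the very large inducible GTPases, was at 22.3 and 41.5 TPM and was not called (0.95-fold). The closest relatives of the family, Gbp10 (0.02 and 0.05 TPM) and Gbp11 (0 and 0.09 TPM), had too few counts to test in the first quantification. In the second both were called higher in replicate 2, and the share of all genes called in that quantification was not computed. Gbp10 had 9.54 and 69.3 counts there (2.85-fold) and Gbp11 1.01 and 23.6 (7.02-fold). The coding sequence of Gbp10 is 98.4% identical to that of Gbp6, and the part of reads shared with Gbp6 was not tested. The difference between this list and the members was not tested.

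Of the genes that carry the interferon signal to the family, 18 of 19 listed were tested, with a median log2 ratio of 0.22. In replicate 2, 3 were called higher and 0 lower, beside 6.92% and 5.02% of all genes tested. The 3 were Ifnb1, which encodes interferon beta (10.5 and 73.3 TPM, 3.61-fold), Usp18, a brake on the type I receptor (5.09 and 32.2 TPM, 2.83-fold), and Irf7, a transcription factor for interferon genes (12.9 and 56.7 TPM, 2.27-fold). The transcription factor gene Irf1 (157.2 and 351.3 TPM), the kinase gene Jak2 (83.0 and 180.8 TPM) and Stat2 (77.5 and 184.4 TPM) had the highest levels, with ratios of 1.18-fold, 1.15-fold and 1.11-fold, and were not called. Ifng, the gene of interferon gamma, had 0 counts in both libraries and both quantifications. In the second quantification Ifnb1 and Usp18 were called and Irf7 was not (1.94-fold). The share of all genes called there was not computed.

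Of 17 partner genes of GBPs in vacuole lysis, LC3 conjugation and inflammasomes, 17 were tested, with a median log2 ratio of 0.10. None was called in either direction, beside 6.92% of all genes tested called higher and 5.02% called lower. At an unadjusted p under 0.05 the exact binomial test gave 13 of them, and the share of all genes at that p was not computed. With DESeq2's size factors 0 were called higher, beside 6.81% of all genes tested. With library totals alone 6 were, beside 26.6%. In the second quantification Sqstm1 was called lower in replicate 2 (0.458-fold), and the share of all genes called lower there was not computed. Sqstm1, which encodes an autophagy receptor, was at 355.7 and 344.1 TPM (0.54-fold on scaled counts), Nlrp3 at 310.1 and 372.5 TPM (0.61-fold) and Casp4, the gene of caspase-11, at 95.3 and 306.1 TPM (1.75-fold). Aim2, which encodes a DNA sensor, had the largest ratio upward (17.4 and 74.0 TPM, 1.85-fold) and Atg7, of the LC3 conjugation system, the largest downward (24.6 and 23.9 TPM, 0.53-fold). The atlastin genes, relatives of GBPs that shape the endoplasmic reticulum, were at 1.30 and 4.59 TPM (Atl1), 3.8 and 9.13 TPM (Atl2) and 6.28 and 16.7 TPM (Atl3), and none of the 3 was called (1.24-fold to 1.71-fold).

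**Figure D2:**
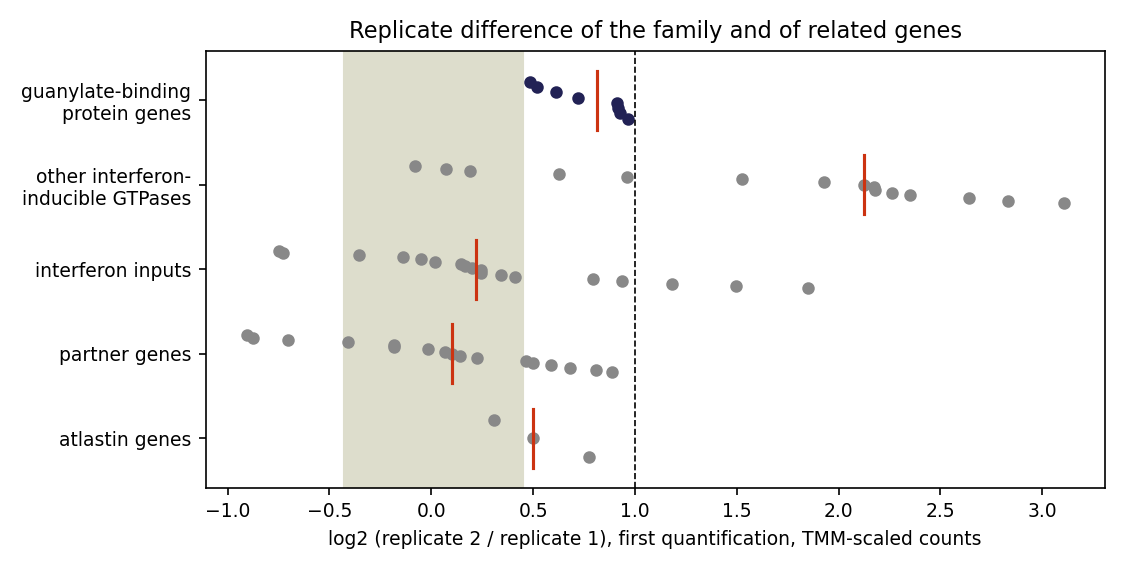
Log2 ratio of replicate 2 over replicate 1 (TMM-scaled counts of the first quantification) for each tested gene of the family and of 4 lists; red bars are list medians, the shaded band spans the quartiles of all 14442 genes tested and the dashed line marks 2-fold. All 8 members lie between 0.49 and 0.97, right of the band and left of the line, while 10 of 15 other interferon-inducible GTPases lie beyond the line.

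The 2 quantifications were then set against each other. The second assigned more counts to nearly every gene: the median protein-coding gene had 1.74 times as many in replicate 1 and 1.71 times as many in replicate 2, and each gene was read relative to that centre. A gene was counted as different at 2-fold or more from the centre in the same direction in both libraries, with no p-value since both quantifications count the same reads. Gbp4 was the only one of 8 members counted, beside 9.37% of 11403 genes and 7.56% of 9294 protein-coding genes that were higher by this rule. No member was lower, beside 0.108% of protein-coding genes that were. Gbp4 had 103 and 426 counts in the first quantification and 598 and 2404 in the second, which is 5.81-fold and 5.64-fold raw and 3.35-fold and 3.29-fold from the centre. Both libraries gave nearly the same ratio. Gbp2 (1.06-fold and 1.19-fold from the centre) and Gbp3 (1.02-fold and 1.05-fold) lay just above the centre. Gbp7 (0.85-fold and 0.81-fold), Gbp5 (0.84-fold and 0.83-fold), Gbp6 (0.77-fold and 0.78-fold), Gbp9 (0.77-fold in both) and Gbp8 (0.75-fold and 0.73-fold) lay below it.

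**Figure D3:**
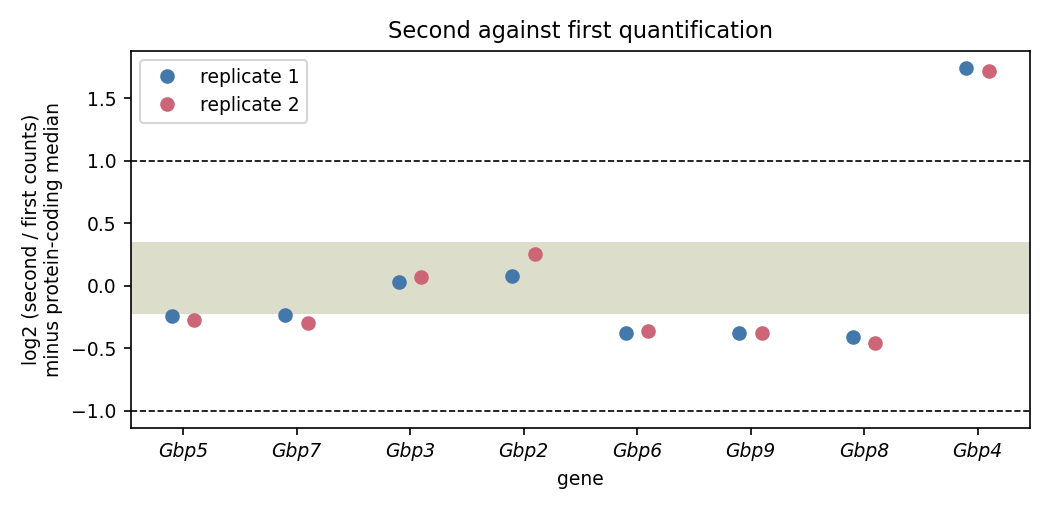
Log2 ratio of second over first counts minus that of the median protein-coding gene, for the 8 members with counts, in replicate 1 and replicate 2; the band spans the quartiles of 9294 protein-coding genes in replicate 1 and dashed lines mark 2-fold. Gbp4 lies at 1.74 and 1.72, and the others lie between -0.46 and 0.25.

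Most of the counts that the second quantification added to Gbp4 were on 1 transcript. Gbp4-205, annotated as retained intron, runs without a break from exon 2 through intron 2 and exon 3 into intron 3 (105133953 to 105137045) and had 21.2 and 171 counts in the first quantification and 451 and 1900 in the second. Those are ratios of 21.3-fold and 11.1-fold, beside a median of 1.62-fold and 1.61-fold over 7546 retained-intron transcripts, of which 0.901% and 1.38% reached 10-fold. The other retained-intron transcripts of the family had ratios of 1.29-fold and 1.26-fold (Gbp5-205), 1.54-fold and 1.55-fold (Gbp6-202), 2.04-fold and 2.17-fold (Gbp8-203) and 1.10-fold and 1.07-fold (Gbp9-203). Gbp4-206, a coding fragment of 768 bases, had a similar ratio on few counts, with 1.6 and 5.49 in the first quantification and 27.3 and 106 in the second (17.1-fold and 19.3-fold), and held 19.4% and 19.6% of Gbp4's TPM in the second. With Gbp4-205 left out, an alternative chosen after seeing the data, Gbp4 had 1.04 and 1.16 times the ratio of the median gene, and no member was counted as different. Of the 31-base words (31-mers) in Gbp4-205, 84.4% occur in no other annotated transcript.

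Of the remaining reads of Gbp4, most were assigned to a transcript that does not encode the full protein. Gbp4-201, the full-length coding transcript, had 0.57 and 0 counts in the first quantification and 0.0226 and 0 in the second. Gbp4-202, annotated as a target of nonsense-mediated decay, had 72.8 and 246.6 counts in the first and 107.9 and 367.9 in the second. The 2 transcripts differ by 29 coding bases at the end of exon 2 (chr5:105136810-105136838, minus strand), shown in capitals with 30 bases on either side of the junction with exon 3.
Gbp4-201: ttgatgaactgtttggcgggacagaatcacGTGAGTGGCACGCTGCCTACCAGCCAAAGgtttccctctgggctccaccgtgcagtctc
Gbp4-202: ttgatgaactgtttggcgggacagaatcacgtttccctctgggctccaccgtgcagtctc
Both exon ends are followed by GT in the genome, the usual first bases of an intron. Without the 29 bases the reading frame closes after 103 codons, beside 631 codons in Gbp4-201. The longer exon is also part of Gbp4-204, which had 0 counts in the first quantification and 5.73 and 27.8 in the second, and the 29 bases lie inside the unspliced stretch of Gbp4-205. Among the spliced transcripts with exon 2, Gbp4-202 thus had the most counts in both libraries and both quantifications. The transcripts differ in few words: no 31-mer is found in Gbp4-201 alone and 0.63% of those of Gbp4-202 are found in it alone, so the split rests on few words.

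Other members also had most of their signal on transcripts not annotated as protein coding, as far as shares of TPM in the first quantification show it. For Gbp5 these shares were 72.7% and 62.1% (67.4 ± 7.43, SD, n = 2), for Gbp6 60.1% and 77.2% (68.7 ± 12.1), for Gbp8 59.6% and 71.1% (65.4 ± 8.14), for Gbp9 55.0% and 68.0% (61.5 ± 9.19) and for Gbp4 57.8% and 88.2% (73.0 ± 21.51). Gbp2 (1.31% and 0%) and Gbp3 (2.43% and 2.75%) had close to none there, and Gbp7 has no such transcript. In the second quantification Gbp2 had 7.96% and 18.3% and Gbp3 10.5% and 9.80%. The median over the 7 members with such a transcript was 65.4%, beside 53.1% over 6638 expressed protein-coding genes with one, whose middle quartiles ran from 33.4% to 69.8%. In the first quantification 3 members were thus near 0 and the mean shares of 5 lay above the median gene. The 5 have a transcript annotated as retained intron, and Gbp2, Gbp3 and Gbp7 have none; in Gbp8 that transcript held 6.90% and 5.54% of TPM.

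In the first quantification Gbp5 was carried mainly by 3 transcripts at similar shares. Gbp5-201, the full-length coding form, held 27.4% and 37.9% of its TPM, the decay target Gbp5-202 28.6% and 23.1% and the retained-intron transcript Gbp5-205 27.9% and 37.2%. In the second quantification Gbp5-201 held 18.6% and 23.45%, Gbp5-202 26.8% and 21.55% and Gbp5-205 22.1% and 29.2%. Gbp5-205 runs unspliced from intron 3 to the end of exon 7, counted as in Gbp5-201 (142502796 to 142505662), and 73.1% of its 31-mers are its own. The quantifications disagreed on Gbp5-204, which begins at an exon upstream of all others (142493978 to 142494125). It had 1100 and 45.3 counts in the first, and 5110 and 13247 counts in the second, where it held 32.3% and 25.6% of Gbp5's TPM. That disagreement was 4.65-fold in replicate 1 and 292.7-fold in replicate 2, inside a gene whose total differed by 1.47-fold and 1.42-fold.

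The remaining chromosome 5 members had several forms at sizeable shares. Gbp9-203, a retained-intron transcript, held 49.1% and 66.2% of Gbp9's TPM, and the coding Gbp9-201 24.9% and 29.5%. Gbp8-204, a processed transcript that covers only the 3′ part of the gene (105014150 to 105022064), held 52.7% and 65.6% of Gbp8's TPM. Gbp6-202, a retained-intron transcript, held 33.0% and 40.6%, and the coding Gbp6-201 39.9% and 22.8%, of Gbp6's TPM. In each of Gbp6, Gbp8 and Gbp9 the share on transcripts that are not protein coding was higher in replicate 2 in both quantifications. In Gbp5 it was lower in replicate 2 in both.

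Gbp7 shares differed between the libraries, and Gbp3 shares between the quantifications. Gbp7-201 and Gbp7-202 both encode protein and differ mainly in the last exon, which is 3830 bases long in Gbp7-201 and 731 in Gbp7-202. Gbp7-201 held 44.6% of Gbp7's TPM in replicate 1 and 71.4% in replicate 2, and 36.4% and 54.5% in the second quantification. The longer form thus had the larger share in replicate 2 in both quantifications. In Gbp3, Gbp3-202 held 85.1% and 84.6% of TPM in the first quantification and 55.8% and 52.4% in the second. Gbp3-205, a fragment of 477 bases, had 0 counts in the first and 70.6 and 254.2 counts in the second, which gave it 24.0% and 22.4% of Gbp3's TPM because it is short. Gbp2-201 held 98.7% and 100% of Gbp2's TPM in the first quantification, and 92.0% and 81.7% in the second.

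**Figure D4:**
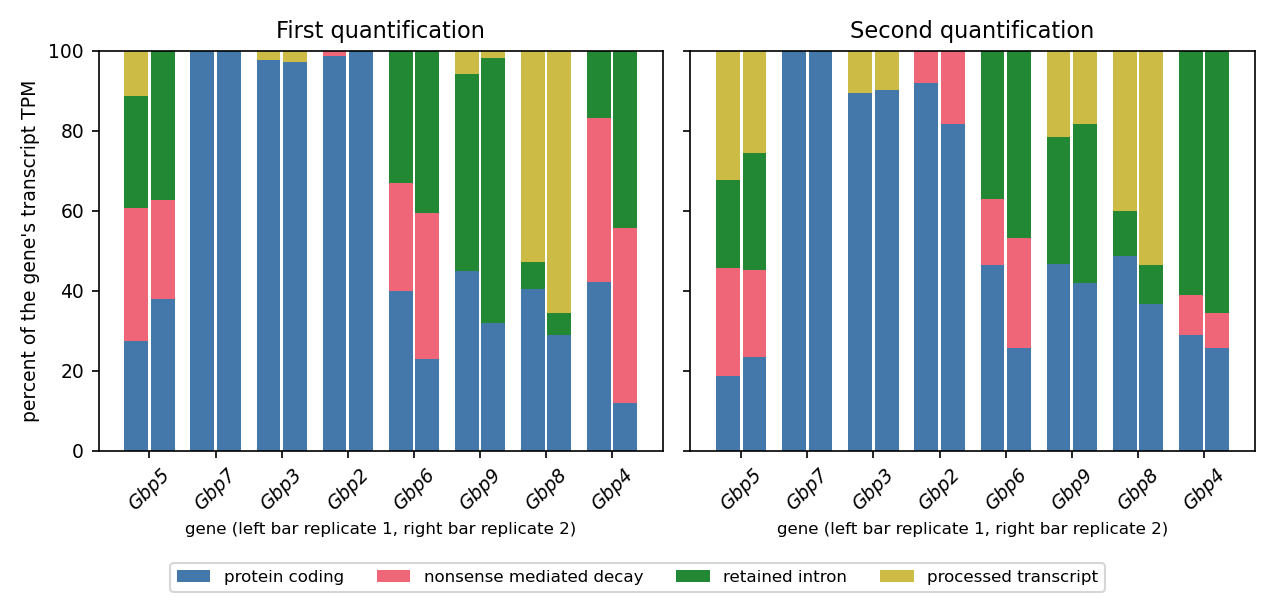
Percent of each member's transcript TPM by annotated class (stacked bars; left bar replicate 1, right bar replicate 2) in the first and second quantification. In Gbp7, Gbp3 and Gbp2 the protein-coding class holds 81.7% or more, and in the other 5 members other classes hold 51.2% or more of TPM in each library and quantification.

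The share of short words found in paralogs differed between the clusters and depended on word length. Of Gbp5's distinct transcript 31-mers 0.19% also occur in another gene of the family, counting Gbp10, Gbp11, Gbp2-ps and Gm43302, and the shares were 4.85% for Gbp2, 4.15% for Gbp2b, 5.64% for Gbp3 and 3.69% for Gbp7. On chromosome 5 they were 13.5% for Gbp4, 18.3% for Gbp9, 31.1% for Gbp8 and 73.9% for Gbp6. For words of 75 bases these shares were 3.08% for Gbp4, 3.61% for Gbp9, 8.04% for Gbp8 and 67.3% for Gbp6. On chromosome 3 they were then at most 2.055%, in Gbp3. Gbp6 shares 67.8% of its 31-mers with Gm43302, a gene that uses 1726 of Gbp6's 5954 exon bases, and 51.4% with Gbp10, whose coding sequence is 98.4% identical. Gm43302 had 0 and 2.42 counts in the first quantification and 21.4 and 0 in the second, and Gbp10 1.62 and 5.71 in the first and 9.54 and 69.3 in the second. The deposited posterior SD of Gbp6's count was 9.54 in replicate 1 and 10.4 in replicate 2, on 1204 and 4774 counts. Gbp6 had the largest shared portion of the 9 members. Its TPM in the second quantification was 0.915 times that in the first in replicate 1 and 0.964 times in replicate 2.

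Overlapping annotation touches 2 further members. The processed pseudogene Gm43802 lies within the last exon of Gbp7 and covers 637 of its bases, on the same strand. It had 0 and 31.8 counts in the first quantification and 32.7 and 165.7 in the second, beside 1885 to 10515 for Gbp7. Mir6381 lies on the opposite strand and shares 24 exon bases with Gbp2, with 0 counts in the first and 17.0 and 77.0 in the second. The sources used here do not say whether counting was by strand, and without it reads of Mir6381 and Gbp2 over these bases cannot be told apart. Gm43802 and Gbp7 share a strand, so strand does not separate them.

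**Figure D5:**
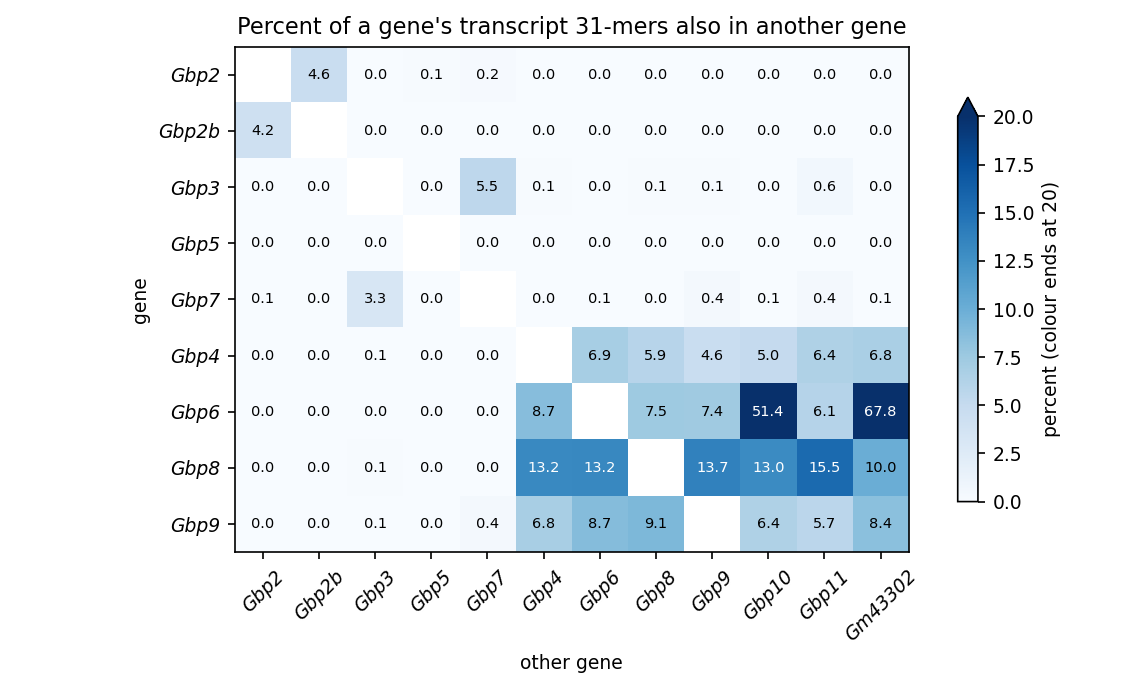
Percent of the distinct transcript 31-mers of each member (rows, chromosome 3 members first) that also occur in another gene (columns); the colour scale ends at 20%. Between members of different clusters the share is at most 0.39%, and Gbp6 with Gm43302 (67.8%) and Gbp10 (51.4%) stands apart.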

How the data were processed

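Chromatin-fraction total RNA was measured in 2 libraries of 1 group. The authors deposited 2 quantifications of each library on mm10 with annotation M21, per the text deposited with the libraries. The first, made from a transcriptome alignment, gives expected counts, TPM, FPKM, posterior means and SDs of the estimated count and a TPM interval, per the file headers. The second, made from the reads, gives estimated counts and TPM per transcript, per the file headers, and was summed per gene. Aligner, quantifiers and strand setting: not given in the sources used here. In the second, 86 genes had no transcript and were set to 0. Rows outside the annotation (0.409% and 0.277% of deposited counts) were left out.

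Expected counts were rounded. With 1 group there were no residual degrees of freedom for a contrast, so the 2 libraries were compared by an exact binomial test (SciPy 1.17.1) with TMM factors (edgeR 4.0.16, R 4.3.3), a prior count of 0.5 in ratios and Benjamini-Hochberg adjustment. DESeq2 1.42.0 gave size factors as an alternative. The test was checked on counts simulated with counting error only, so the check does not cover other variation between libraries. Coding sequences were aligned globally with Biopython 1.88. Sequences came from GENCODE M21 transcripts and the RefSeq promoter table. All 9 members were named. Of each related list, the 3 genes of highest mean TPM and the 2 of largest ratio were named, and Irf7 was added after its value was seen. The members and lists were chosen with earlier results of these data known. Alternatives were other scalings, filters, units, thresholds, word lengths and windows, and each library left out.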

Additional observations from a re-analysis of the deposited data

How the results depend on the processing

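No paired analysis was possible because the series has 1 group. With 2 libraries, levels, ratios and shares are limited by their number, and depth limits Gbp4, Gbp2b and single transcripts most. Of the alternatives to the main results, 27 left the value within the spread or 1.5 times and 11 were labelled as moved. The word lengths of 75 and 21 bases were among the 11 by rule, with no spread compared. A reversed direction was not looked for in the main results. The members' summed level of 583.2 TPM became 2785 TPM when rescaled to protein-coding genes, which lifts every member by the same factor within a library, and ran from 285.9 to 880.5 TPM when a library was left out. Members called higher in replicate 2 numbered 0 in the main comparison, 8 with library size only and 1 without the filter on low counts. The related genes called higher numbered 13 in the main comparison and 26 with library size only, beside 6.92% and 26.6% of all genes tested. Members differing between quantifications numbered 1 in the main comparison, 1 with either library left out, and 0 at 4-fold and with Gbp4-205 left out, the last chosen after seeing the data. The median share of TPM on transcripts that are not protein coding, over 8 members, was 63.4% in the main comparison, 56.5% in the second quantification and 56.4% to 65.1% when a library was left out. The median share of 31-mers also found in any other gene was 14.7%, against 3.08% for words of 75 bases and 17.8% for words of 21 bases, by construction. Members with a kB match numbered 4 over the whole window and 2 upstream only. Of 232 values for single genes or for related lists, 185 stayed the same, 37 were labelled as moved, 9 passed the threshold, 1 no longer did and 0 reversed. The values for words of 75 and 21 bases were all labelled as moved by rule, with no spread compared. Only ratios could be labelled as reversed.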

Other observations

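A relative of the family showed a larger gap between the quantifications than any member and was singled out after its values were seen. Gm4841, an immunity-related GTPase gene, had 4 and 10 counts in the first quantification and 323.1 and 1490 in the second, or 0.05 and 0.12 TPM beside 2.77 and 12.8 TPM. Gm4951, a gene of the same group, had 65.0 and 213 counts in the first and 237.4 and 1341 in the second. It was the 1 of 15 tested interferon-inducible GTPases counted as different. By the same rule 9.37% of all genes and 7.56% of protein-coding genes were higher. Gm4841 was expressed at 1 TPM or more by the second quantification and was close to 0 by the first.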
